A study of Homo sapiens with 6 samples.

Results

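The genes described here are 9 strong output genes of the transcription coactivators YAP and TAZ, out of 58884 genes measured. They are CTGF, CYR61, ANKRD1, F3, AXL, CRIM1, ASAP1, AMOTL2 and MYOF. They were found by symbol, and each symbol named 1 gene (CTGF and CYR61 are the older names of CCN2 and CCN1). All 9 belong to a 22-gene signature of YAP/TAZ activity, and they were chosen with their values in these libraries known. Their difference between the lines is therefore given as a description, with no test. RNA came from untreated cells of KYSE70, a line established from a human esophageal squamous cell carcinoma (ESCC) that carries a mutant NFE2L2 gene, and of NRF2null-KYSE70, which was grown from 1 clone of KYSE70 after CRISPR-Cas9 cutting in a coding exon of that gene. Its product is NRF2, a transcription factor of the antioxidant response. Both lines were kept in RPMI1640 medium with fetal bovine serum and antibiotics, and each gave 3 libraries. Nothing in the labels says that the libraries were separate cultures, so p-values measure the spread between these libraries only, and a difference between the groups is a difference between 1 clone and its parental line.

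YAP and TAZ are the effectors of the Hippo pathway. When its kinases MST and LATS are active, as in dense or soft surroundings, YAP and TAZ are phosphorylated and held in the cytoplasm. When the kinases are inactive, YAP and TAZ enter the nucleus and bind TEAD factors, often on sites shared with AP-1, and switch on genes of matrix, adhesion and growth. In squamous epithelium this activity is known from basal cells and from squamous tumors. Some of the switched-on genes, such as AMOTL2 and LATS2, encode proteins that restrain YAP in turn.

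The libraries held 52072801 to 63975313 reads in genes. NFE2L2, examined as a check of the labels, had 9839, 9906 and 10039.8 normalized counts in KYSE70 and 5803, 6041 and 6434 in NRF2null-KYSE70, so it was lower in each library of the clone, with much of its RNA left. A normalized count is a read count divided by 1 scaling factor per library. All 8 squamous markers on a fixed list had reads in these cells. They were split, with KRT5, TP63, DSG3 and PKP1 lower in the clone and KRT6A, KRT17, KRT14 and SOX2 higher, and their sum of 313991 to 321063 normalized counts in KYSE70 and 229539 to 240079 in NRF2null-KYSE70 was mostly KRT5. Several members are also abundant in fibroblasts, so 8 fibroblast markers were summed. They gave 3851 to 3973 normalized counts in KYSE70 and 3039 to 3454 in NRF2null-KYSE70, and COL1A2 and DCN were at 0 in all 6 libraries. The sum was carried by THY1 (means of 2429 and 2702 normalized counts in KYSE70 and NRF2null-KYSE70) and by COL1A1 (1232 and 554), and COL3A1 was at 257 and 8.46. PDGFRB was at 0 and 14.3. Of 5 endothelial markers, VWF had means of 142 and 353 normalized counts in KYSE70 and NRF2null-KYSE70, TEK had 7.13 and 32.3, and KDR was at 0 throughout. The sums of these 5 were 137 to 159 and 293 to 499. Those of 5 immune markers were 0 to 9.49 and 42.2 to 58.2, where PTPRC made up most of the sum in the clone (mean of 43.6 normalized counts, against 0.351 in KYSE70), MS4A1 was at 0 throughout and CD68, CD14 and CD3E were too low to be tested. Their part in the results was not tested. Reads of mitochondrial genes took 1.85% to 2.05% of the total in KYSE70 and 2.26% to 2.29% in NRF2null-KYSE70.

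All 9 genes were higher in NRF2null-KYSE70, with no overlap between the libraries of the lines. Among all 15994 genes tested, 32.1% were higher in this way without overlap, and 7.23% passed both an adjusted p under 0.05 and a log2 fold change of at least 1 on the higher side. Nothing is read from these shares, because the genes were chosen on this comparison. The difference ran from 2.30-fold for MYOF to 127-fold for CTGF, with a median of 5.54-fold. Together the 9 genes held 0.0638% to 0.0689% of the reads in KYSE70 and 0.267% to 0.303% in NRF2null-KYSE70. In bulk RNA, more cells with the transcript and more transcript in each cell cannot be told apart.

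**Figure D1:**
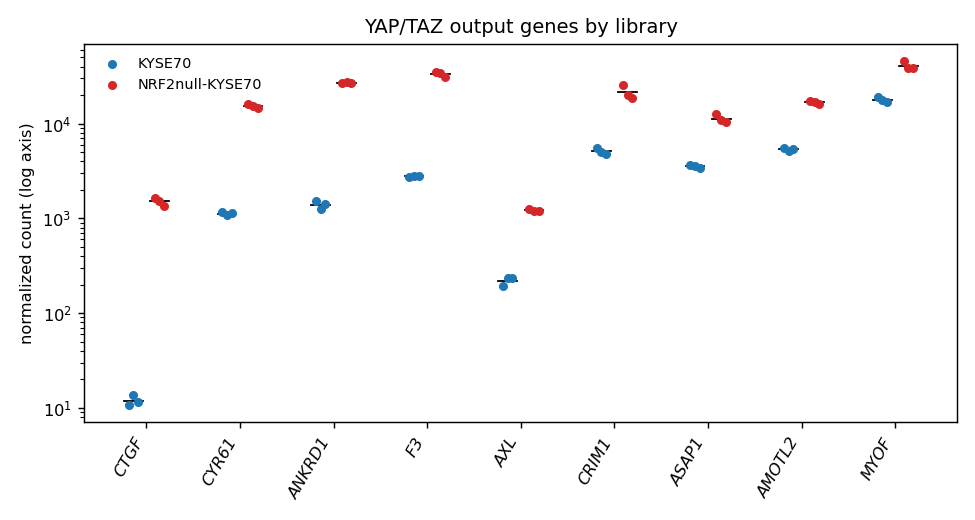
Normalized counts (log axis) of the 9 YAP/TAZ output genes in each library, with KYSE70 in blue, NRF2null-KYSE70 in red and a black bar at each mean of 3 libraries. For each gene the red points lie above the blue points, by the widest margin for CTGF, which starts near 12.0 normalized counts, and by the narrowest for MYOF.

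CTGF and CYR61 encode secreted matricellular proteins of the CCN family, which bind integrins and are the most widely used readouts of YAP/TAZ. CTGF (ENSG00000118523, chromosome 6, 131948176 to 131951372 on the minus strand, hg38) had 10.7, 13.6 and 11.6 normalized counts in KYSE70 and 1648, 1543 and 1355 in NRF2null-KYSE70. The parental libraries thus held almost no CTGF, only 12, 15 and 11 reads, so its 127-fold difference (log2 fold change 6.87) rests on few reads in the denominator. Adding 5 instead of 1 before taking logarithms gave 6.49. CYR61 (ENSG00000142871, chromosome 1, 85580761 to 85584589) was well expressed in both lines, with 1155, 1079 and 1139 normalized counts in KYSE70 and 16328, 15363 and 14643 in NRF2null-KYSE70. Its means were 1125 ± 39.9 and 15445 ± 845 (SD, n = 3 per line), a 13.7-fold difference and a log2 fold change of 3.78.

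The promoter of CTGF is shown because its TEAD sites are the classic docking place of YAP. The bases from 250 to 1 before the RefSeq start (GRCh38.p14, chr6:131951373-131951622, minus strand, 5′ to 3′) carry 3 copies of the TEAD motif GGAATG, printed in capitals.
CTGF: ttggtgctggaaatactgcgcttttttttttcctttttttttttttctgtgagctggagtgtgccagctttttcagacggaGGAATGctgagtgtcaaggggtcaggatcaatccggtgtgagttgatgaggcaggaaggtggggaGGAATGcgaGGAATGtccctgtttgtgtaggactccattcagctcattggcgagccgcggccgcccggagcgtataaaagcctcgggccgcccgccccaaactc
The copies start 169, 104 and 95 bases before the transcription start, the last pair close together.

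ANKRD1 and F3 were the most abundant members per length in the clone. ANKRD1 (ENSG00000148677, chromosome 10, 90912096 to 90921087, minus strand) encodes an ankyrin repeat protein of the nucleus and, in muscle, the sarcomere. It had 1518, 1254 and 1406 normalized counts in KYSE70 and 26903, 27315 and 27034 in NRF2null-KYSE70. The libraries of the clone agreed to within a coefficient of variation of 0.776%, against 9.53% in the parental line, and the means differed 19.5-fold (log2 fold change 4.29). F3 (ENSG00000117525, chromosome 1, 94529173 to 94541759, minus strand) encodes tissue factor, the cell surface receptor that starts blood coagulation. It had 2763, 2778 and 2819 normalized counts in KYSE70 and 34709.9, 33863 and 31145 in NRF2null-KYSE70. Here the parental libraries were the closer ones, with a coefficient of variation of 1.03%, and the means differed 11.9-fold (log2 fold change 3.57).

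These 2 promoters are shown because they differ from that of CTGF in the motifs they hold. Capitals mark the TEAD motif GGAATG and the AP-1 motif TGANTCA in the 250 bases before each RefSeq start (GRCh38.p14, minus strand, 5′ to 3′), at chr10:90921088-90921337 for ANKRD1 and chr1:94541760-94542009 for F3.
ANKRD1: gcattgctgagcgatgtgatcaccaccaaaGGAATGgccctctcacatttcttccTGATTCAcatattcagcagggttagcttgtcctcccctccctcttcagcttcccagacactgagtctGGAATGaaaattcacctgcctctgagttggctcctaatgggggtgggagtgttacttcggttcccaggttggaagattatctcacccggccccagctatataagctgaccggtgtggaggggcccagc
F3: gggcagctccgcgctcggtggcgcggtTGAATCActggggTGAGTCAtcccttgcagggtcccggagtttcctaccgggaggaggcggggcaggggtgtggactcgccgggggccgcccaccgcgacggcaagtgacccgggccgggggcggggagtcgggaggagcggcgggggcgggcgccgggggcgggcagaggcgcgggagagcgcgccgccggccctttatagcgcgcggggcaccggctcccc
ANKRD1 has TEAD motifs starting 220 and 128 bases before the start with an AP-1 motif between them at 195, whereas F3 has AP-1 motifs at 223 and 210 and no TEAD motif in this window. The F3 window is also rich in G and C (78.0%), against 53.2% in both others.

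AXL and CRIM1 encode proteins of the cell surface. AXL (ENSG00000167601, chromosome 19, 41219223 to 41261766) is a receptor tyrosine kinase of the TAM family and binds the ligand GAS6. It had 194, 232 and 236 normalized counts in KYSE70 and 1272, 1208 and 1189.5 in NRF2null-KYSE70. Even the lowest library of the clone was far above the highest parental one, and the difference was 5.54-fold (log2 fold change 2.47). CRIM1 (ENSG00000150938, chromosome 2, 36355778 to 36551135) is a transmembrane protein with cysteine-rich repeats that binds bone morphogenetic proteins (BMPs). It had 5474, 5032 and 4772 normalized counts in KYSE70 and 25865, 20029.7 and 18659 in NRF2null-KYSE70. Library 1 of the clone stood above the other two, and without it the log2 fold change of CRIM1 was 1.93 in place of 2.07. The ratio of means was 4.23.

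ASAP1, AMOTL2 and MYOF act at the inner face of the membrane and in the cortex of the cell. ASAP1 (ENSG00000153317, chromosome 8, 130052104 to 130443674, minus strand) activates GTP hydrolysis by Arf proteins and works in focal adhesions. It had 3668, 3578 and 3439.8 normalized counts in KYSE70 and 12577, 11062 and 10361 in NRF2null-KYSE70, or 3.18 times the parental mean (log2 fold change 1.67). AMOTL2 (ENSG00000114019, chromosome 3, 134355347 to 134375479, minus strand) is a junction protein of the motin family that binds YAP and holds it back. It had 5506, 5124 and 5401 normalized counts in KYSE70 and 17548, 16991 and 15997 in NRF2null-KYSE70, a 3.15-fold difference (log2 fold change 1.66). The restraining gene was thus higher in the same libraries as the other outputs. MYOF (ENSG00000138119, chromosome 10, 93306429 to 93482334, minus strand) is a ferlin that serves in membrane fusion and repair. It was the most abundant member in KYSE70, with 18899, 17623 and 17041 normalized counts there and 45671, 38909 and 38529.9 in NRF2null-KYSE70, and it had the smallest fold difference of the 9, 2.30-fold (log2 fold change 1.20).

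The order of the levels was not the same in the 2 lines. Per kilobase of exon, MYOF led in KYSE70 with 2103 ± 112 normalized counts (SD, n = 3), followed by F3 with 966 ± 9.94. AMOTL2, ANKRD1 and CRIM1 came next at 825 ± 30.4, 778 ± 74.2 and 700.5 ± 48.8, and neighbors in that order overlapped between libraries. ASAP1 (429 ± 13.9), CYR61 (304 ± 10.8), AXL (43.0 ± 4.55) and CTGF (5.12 ± 0.641) followed, each apart from the next. In NRF2null-KYSE70, ANKRD1 led with 15131 ± 117 normalized counts per kilobase (SD, n = 3), ahead of F3 with 11517 ± 645 and MYOF with 4834 ± 473. CYR61 moved up to the fourth place with 4177 ± 229, and CTGF with 648 ± 63.5 passed AXL with 238 ± 8.42. Between them lay CRIM1 (2960 ± 526) and AMOTL2 (2600 ± 121), whose libraries overlapped, and ASAP1 (1366 ± 137).

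The libraries of the clone differed in the level of the 9 genes. Other lists described here shared this order in part, the other signature genes least. Library 1 of NRF2null-KYSE70 was the highest of its line for 8 of the 9 genes, with ANKRD1 as the exception, and library 3 was the lowest for 8 of the 9, with CRIM1, CTGF and ASAP1 the farthest below. The median log2 deviation from the mean of the line was 0.08 in library 1, -0.01 in library 2 and -0.09 in library 3, while the median over all tested genes lay within 0.01 of 0 in each. Library 1 was also the highest for 8 of the other 13 signature genes and 21 of 31 tested further YAP/TAZ targets. It was the highest for 23 of 30 tested Hippo genes and 18 of 24 tested relatives and partners. The shares were 40.8% of all tested genes and 48.5% of those with a mean of at least 1000 normalized counts. Library 3 was the lowest for 5 of these signature genes, 20 of the further targets, 18 of the Hippo genes and 16 of the relatives and partners. The matching shares were 33.5% of all tested genes and 36.6% of those with a mean of at least 1000. AMOTL1, which was slightly lower in the clone, had 12873, 10540.4 and 10483 normalized counts in its libraries, so the order was not particular to the members. In KYSE70 the libraries showed no such order, with medians of 0.04, -0.01 and 0.02 and 6, 3 and 5 genes above the mean of the line. Over all 6 libraries, 29 of the 36 pairs of genes had positively correlated deviations, with a median Pearson correlation of 0.53, a description over few libraries that share their scaling. Pairs of other genes were not counted, so nothing is read from this share. The spread was small beside the difference between the lines. The median SD within a line was 0.11 on the log2 scale, against 0.07 for the 8107 tested genes with a mean of at least 1000 normalized counts. The sets are not alike in level, since CTGF and AXL averaged under 1000 normalized counts over the 6 libraries. Their SDs were 0.15 and 0.12, and the largest, 0.19, was that of CRIM1, which lay above that level.

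**Figure D2:**
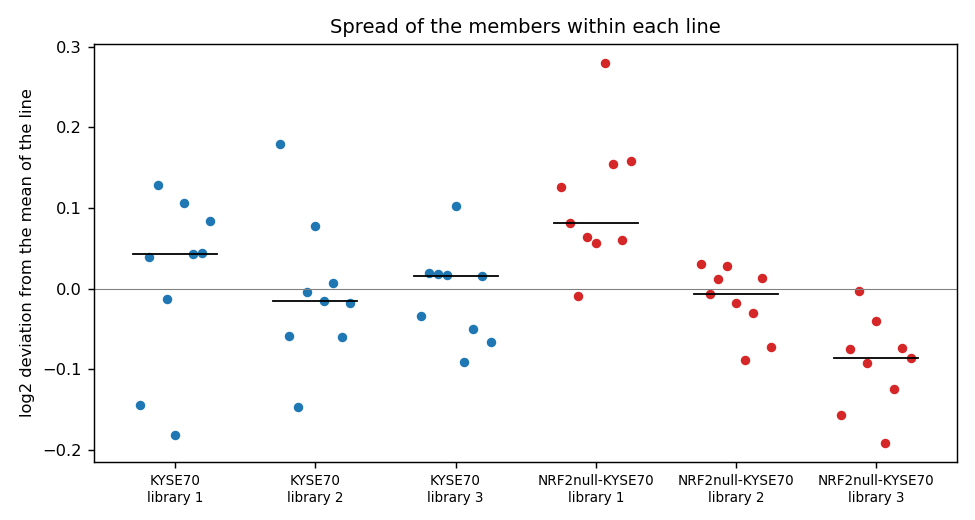
Log2 deviation of each of the 9 genes from the mean of its own line, by library, with a black bar at the median of the genes. The points of NRF2null-KYSE70 library 1 lie mostly above 0 and all those of library 3 below it, whereas the KYSE70 libraries straddle 0.

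The 9 genes lie on 7 chromosomes, and their neighbors were examined because the median difference between the lines varied from one chromosome arm to another. For CTGF, CYR61, ANKRD1, F3, AXL, CRIM1, AMOTL2 and MYOF, the median log2 fold change of the 40 nearest tested genes lay between -0.09 and 0.21. ASAP1 was the exception. Its neighbors on 8q had a median log2 fold change of 0.89 over a stretch of 17.8 Mb, so ASAP1 exceeded its own surroundings by 0.78. The median of the whole 8q arm was 0.26 and that of 3q, where AMOTL2 lies, was 0.28. After subtraction of the arm median, ASAP1 and AMOTL2 had log2 fold changes of 1.41 and 1.37. CYR61 was above all 40 of its neighbors, and the others had between 1 and 5 neighbors above them.

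**Figure D3:**
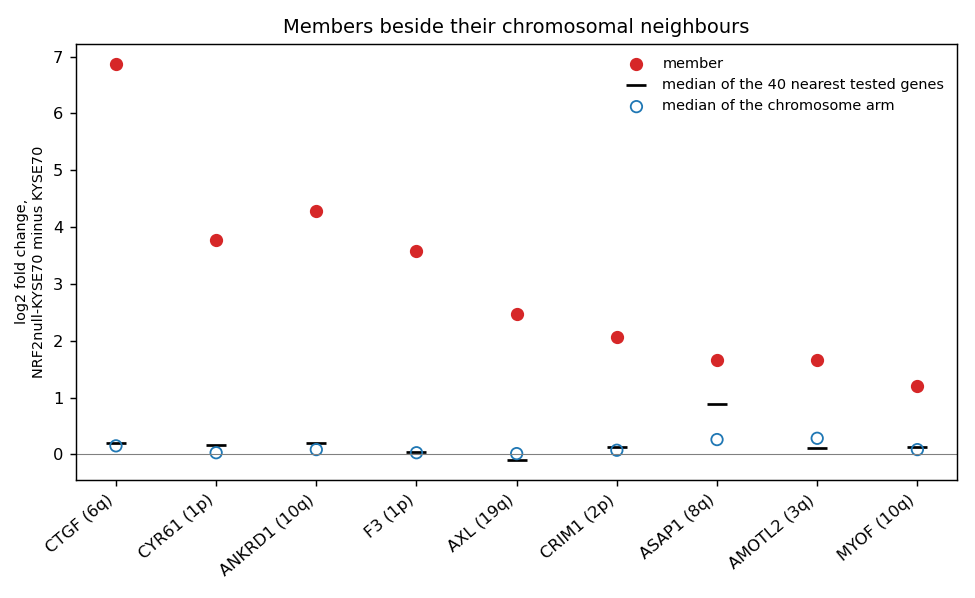
Log2 fold change (NRF2null-KYSE70 minus KYSE70) of each of the 9 genes (red), with the median of the 40 nearest tested genes (black dash) and of the chromosome arm (blue circle). The medians lie near 0 beside all genes except ASAP1, whose neighbors reach 0.89.

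Promoter motifs were counted for the 6 members with a RefSeq window (250 bases before to 50 after the start), which were CTGF, ANKRD1, F3, AXL, AMOTL2 and MYOF. CYR61, CRIM1 and ASAP1 were not among them. The TEAD motif GGAATG, on either strand, was found in 2 of these 6 windows (CTGF and ANKRD1) and in 14.0% of 27305 windows of all genes. At least 2 copies were present in the same 2 windows, against 1.37% of all windows. The AP-1 motif TGANTCA, searched on both strands, overlapped no TEAD motif in the members and was found in ANKRD1 and F3 and in 7.76% of all windows. The serum response element known as the CArG box was in none of the 6 and in 1.29% of all windows. AXL, AMOTL2 and MYOF held none of these letters. Among the 10 windows of the other signature genes, 5 held the TEAD motif (LATS2, FOXF2, PTPN14, NUAK2 and TGFB2) and none held the AP-1 motif. FOXF2 was slightly lower in the clone, by a difference that did not pass the test under each alternative.

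The other 13 genes of the 22-gene signature were compared next, to see how far the difference extended beyond the members. They are the part of the signature that was left when the 9 were chosen, so they are not a random sample. All 13 were tested. With limma, 5 passed an adjusted p under 0.05 and a log2 fold change of at least 1 on the higher side and none on the lower side, beside 7.23% and 7.43% of all genes tested. By the adjusted p alone, 10 were higher and 3 lower, beside 29.3% and 28.3% of all genes. The median log2 fold change was 0.87, against -0.01 over all tested genes.

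The 5 genes past both thresholds were GADD45A, IGFBP3, LATS2, PTPN14 and NT5E. GADD45A, a stress-induced inhibitor of growth, rose from 3202 ± 111 to 9992 ± 357 normalized counts (mean ± SD, n = 3 per line; log2 fold change 1.64, limma adjusted p = 5.18e-11). IGFBP3, which binds insulin-like growth factors, rose from 10574 ± 653 to 28801 ± 1434 (mean ± SD, n = 3 per line; log2 fold change 1.45, limma adjusted p = 4.2e-10). Both were clear of the parental libraries by more than their spread. LATS2, a kinase that phosphorylates YAP, had 1019, 945 and 864 normalized counts in KYSE70 and 2576, 2005 and 2049 in NRF2null-KYSE70 (log2 fold change 1.22, limma adjusted p = 3.25e-07). PTPN14, a phosphatase that binds YAP, had a log2 fold change of 1.04 (limma adjusted p = 1.15e-06). It fell under the fold threshold without NRF2null-KYSE70 library 1 (0.90) or KYSE70 library 3 (0.99), under total scaling (0.96) and under quantile normalization (0.94). NT5E, the surface enzyme CD73 that makes adenosine, was barely expressed, with a single read in KYSE70 library 1, 0 in libraries 2 and 3, and 30, 34 and 29 in the clone (limma adjusted p = 5.38e-05).

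Of the remaining 8, DOCK5 (0.87), CCDC80 (0.70), ARHGEF17 (0.66), NUAK2 (0.45) and TGFB2 (0.91) were higher by log2 fold changes under 1, with limma adjusted p-values from 4.99e-07 for DOCK5 to 0.00125 for NUAK2. DOCK5 lies on 8p, and after arm-centring its log2 fold change was 1.25. TGFB2 passed the fold threshold without NRF2null-KYSE70 library 2 (1.02). The lower genes were RBMS3, an RNA-binding protein, FJX1 and FOXF2. RBMS3 had 1748, 1895 and 1714 normalized counts in KYSE70 and 868, 849 and 978 in NRF2null-KYSE70 (log2 fold change -0.99, limma adjusted p = 2.51e-07). After arm-centring its log2 fold change was -0.51, since it lies on 3p, where the arm median was -0.48. It passed the fold threshold without the first (-1.01) or the third (-1.02) library of KYSE70, and without the third of the clone (-1.05). RBMS3 also passed it under TMM scaling, the method of edgeR (-1.004), and under total scaling (-1.07). FJX1 and FOXF2 kept 86.3% and 86.1% of the parental level (limma adjusted p = 0.00985 and 0.0428). For FOXF2 the limma adjusted p was above 0.05 with no filter on low genes and under quantile normalization, and reached 0.152 without KYSE70 library 1, and for FJX1 it was 0.0502 without NRF2null-KYSE70 library 2, so neither kept its place under each alternative.

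**Figure D4:**
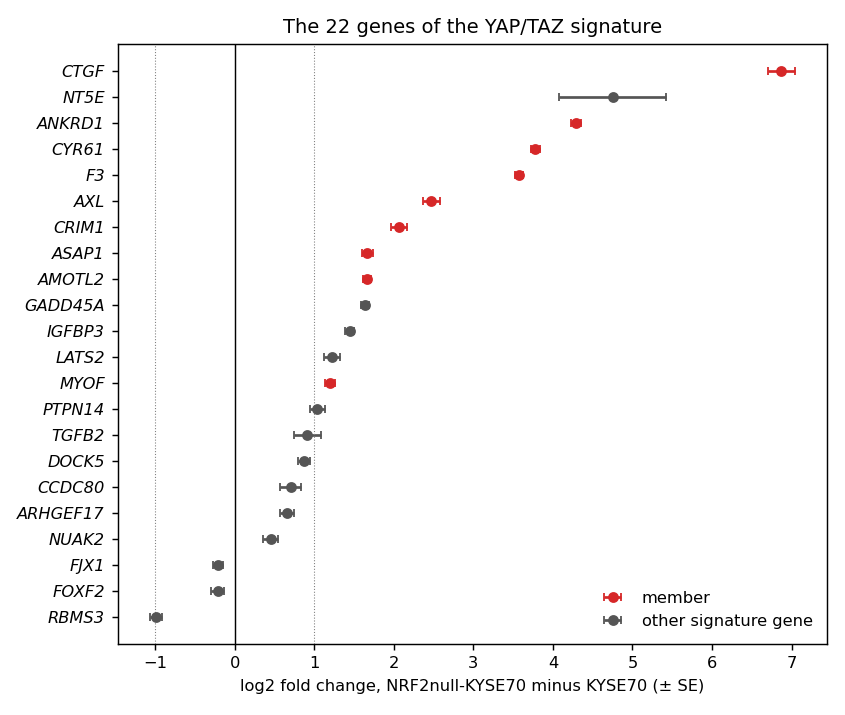
Log2 fold change with its SE for the 22 signature genes, the 9 members in red and the other 13 in gray, with dotted lines at -1 and 1. In all, 19 of the 22 points lie to the right of 0; the wide bar of NT5E reflects the single read in KYSE70.

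A further list of 34 YAP/TAZ targets, none of them in the signature, was written from general knowledge, and 31 were tested. It was written with earlier results of these data known, so it is not an independent check of the members. With limma, 13 passed both thresholds on the higher side and 1 on the lower side, and by the adjusted p alone 25 were higher and 3 lower. The shares over all genes were 7.23% and 7.43% by both thresholds and 29.3% and 28.3% by the adjusted p alone. The median log2 fold change was 0.83, against -0.01 over all tested genes. THBS1, a matrix glycoprotein, rose from 36063 ± 2824 to 322949 ± 29724 normalized counts (mean ± SD, n = 3 per line; log2 fold change 3.16, limma adjusted p = 4e-12). AREG, a ligand of the EGF receptor, had 2266, 2377 and 2421 normalized counts in KYSE70 and 18428, 19454 and 18031 in NRF2null-KYSE70 (log2 fold change 2.98, limma adjusted p = 2.81e-13). BICC1, an RNA-binding protein, rose 24.6-fold from 81.3 ± 27.8 normalized counts (SD, n = 3; limma adjusted p = 1.14e-09). FSTL1 and GADD45B rose by log2 fold changes of 2.66 and 2.28 (limma adjusted p = 5.92e-07 and 7.91e-11). EMP2, an epithelial membrane protein on 16p, was the single gene past both thresholds on the lower side, with 46.7% of the parental level (log2 fold change -1.10, limma adjusted p = 6.62e-09), and after arm-centring it was at -0.61.

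Genes of the Hippo pathway itself moved in both directions. Of 34 genes for its kinases, adaptors, upstream regulators and nuclear factors, 30 were tested, and 5 passed both thresholds on the higher side (LATS2, NF2, TEAD1, PTPN14 and FAT1) and 1 on the lower side (AMOT). The lists overlap, since LATS2 and PTPN14 are also signature genes, TEAD1 is a further target and AMOT is counted among the relatives. By the adjusted p alone, 19 were higher and 7 lower with limma, and the median log2 fold change was 0.34. Over all genes tested, 7.23% and 7.43% passed both thresholds on the higher and the lower side and 29.3% and 28.3% the adjusted p alone, so the lower Hippo genes were near the background. NF2, which activates LATS kinases at the membrane, and TEAD1, a DNA-binding partner of YAP, had log2 fold changes of 1.18 and 1.16 (limma adjusted p = 6.23e-09 and 5.06e-08). Of the other TEAD genes, TEAD2 was lower (log2 fold change -0.60, limma adjusted p = 6.73e-07). TEAD3 and TEAD4 were slightly higher, by 0.37 and 0.17 (limma adjusted p = 0.000437 and 0.0201). Per kilobase of exon, TEAD2 and TEAD1 stood at 1405 and 544 normalized counts in KYSE70, and at 926 and 1221 in NRF2null-KYSE70. FAT1, a large cadherin above the pathway, had 9818, 8454 and 7543 normalized counts in KYSE70 and 21468, 15706 and 15770.0 in NRF2null-KYSE70 (log2 fold change 1.03, limma adjusted p = 6.24e-06). Its value fell under the fold threshold without NRF2null-KYSE70 library 1 (0.88) or KYSE70 library 3 (0.94), under total scaling (0.95) and quantile normalization (0.91), and after arm-centring (0.88). LATS1, the other LATS kinase gene, did not pass the test (log2 fold change 0.11, limma adjusted p = 0.166). Per kilobase of exon, LATS1 and LATS2 stood at 317 and 168 normalized counts in KYSE70, and at 343 and 394 in NRF2null-KYSE70. YAP1 and WWTR1, the genes of YAP and TAZ, moved in opposite directions by small amounts, with log2 fold changes of 0.48 and -0.47 (limma adjusted p = 2.43e-06 and 5.31e-06). RNA levels say nothing of the phosphorylation or location of these proteins, which was not measured here.

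Relatives and partners of the members were then compared, since a member may differ alone or with its family. Of 36 genes on these lists, 24 were tested, and with limma 6 passed both thresholds on the higher side and 3 on the lower side, and 13 and 6 passed the adjusted p alone. The same all-gene shares apply (7.23% and 7.43%, then 29.3% and 28.3%). The CCN family was split. NOV, also called CCN3, was the abundant family member of the parental line, and its RNA fell from 17406 ± 518 to 1620 ± 87.2 normalized counts (mean ± SD, n = 3 per line; log2 fold change -3.43, limma adjusted p = 1.69e-13), while CTGF and CYR61 were higher. Per kilobase of exon, NOV stood at 6659 normalized counts in KYSE70 and CYR61 at 304, and in NRF2null-KYSE70 NOV stood at 620 and CYR61 at 4177. WISP2 had 52.9 ± 16.7 and 64.7 ± 14.0 normalized counts (mean ± SD, n = 3 per line; limma adjusted p = 0.393), and WISP1 and WISP3 were too low to be tested. The integrins that CCN proteins bind were higher in the clone. ITGB5 rose 2.80-fold (limma adjusted p = 1.62e-09), and ITGAV, ITGA6 and ITGB1 had log2 fold changes of 0.90, 0.90 and 0.85 (limma adjusted p = 2.69e-08, 3.25e-07 and 1.47e-08). ITGB3 was too low to be tested.

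Paralogues of the other members were mixed, and several did not pass the test. ANKRD2 had 478, 457 and 651 normalized counts in KYSE70 and 637, 519.7 and 470.3 in NRF2null-KYSE70, ranges that overlap (limma adjusted p = 0.822), and ANKRD23 was low, with 9 to 43 reads (limma adjusted p = 0.789). In the TAM family, TYRO3 had 2447 ± 84.9 and 2529 ± 66.2 normalized counts (mean ± SD, n = 3 per line; limma adjusted p = 0.485), and MERTK was lower at 53.1% of the parental level (log2 fold change -0.94, limma adjusted p = 0.00508). MERTK passed the fold threshold without KYSE70 library 3 (-1.04) or NRF2null-KYSE70 library 1 (-1.17), and under total scaling (-1.01). The ligands of these receptors were both higher. GAS6 had a log2 fold change of 0.83 and PROS1 one of 1.28 (limma adjusted p = 4.99e-08 and 3.22e-05). ASAP2 was higher and ASAP3 lower by small amounts, with log2 fold changes of 0.38 and -0.35 (limma adjusted p = 0.000791 and 0.00098). In the motin family AMOT fell to 39.1% of the parental level (log2 fold change -1.36, limma adjusted p = 1.75e-08) and AMOTL1 was at 88.4% (limma adjusted p = 0.0496), whereas AMOTL2 was higher. Among the ferlins, DYSF and FER1L6 were at low levels and moved apart, from 72.3 ± 13.5 to 21.8 ± 10.8 and from 46.2 ± 9.38 to 116 ± 16.2 normalized counts (mean ± SD, n = 3 per line; limma adjusted p = 0.00174 and 0.000495). OTOF and FER1L5 were too low to be tested.

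**Figure D5:**
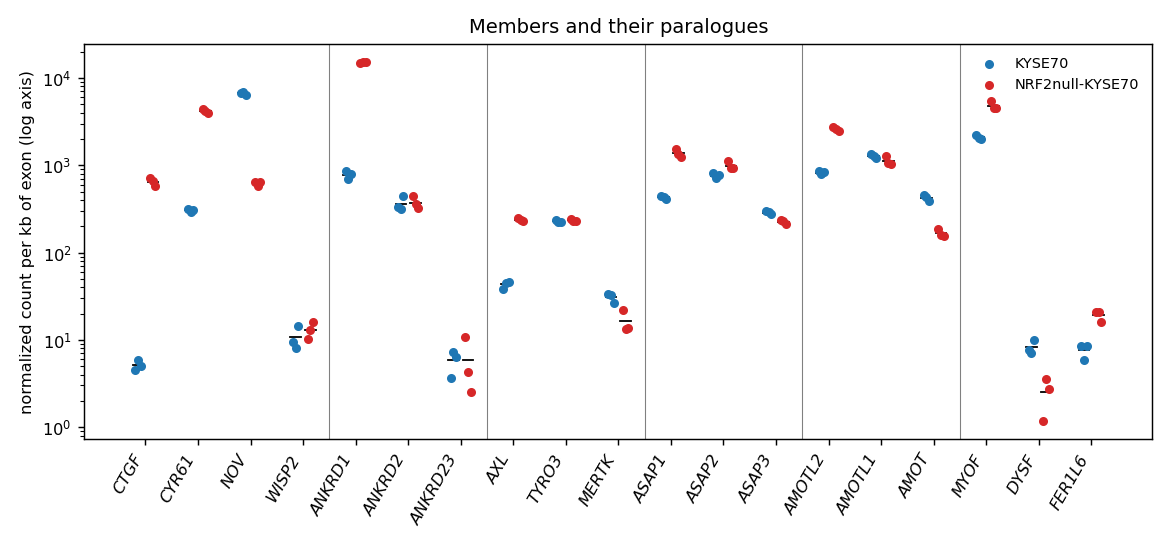
Normalized counts per kilobase of exon (log axis) in each library for members and the tested paralogues of their families, with gray lines between families and a black bar at each mean. CTGF and CYR61 lie higher in NRF2null-KYSE70 and NOV lower, and AMOTL2 lies higher while AMOT lies lower.

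Partners of tissue factor and of CRIM1 completed the comparison. Factor VII, factor X and the inhibitors TFPI and TFPI2, which act on or with tissue factor, were all too low to be tested in these cells. The protease-activated receptors F2R and F2RL1, which respond to coagulation proteases, had log2 fold changes of 1.45 and 0.59 (limma adjusted p = 3.81e-07 and 2.31e-05). Of the BMP genes, BMP2 had 30.2, 6.35 and 2.11 normalized counts in KYSE70 and 188, 199 and 170.1 in NRF2null-KYSE70 (limma adjusted p = 5.44e-05). KYSE70 library 1 stood apart for this gene, and its log2 fold change of 4.38 was 5.28 without that library and 3.62 without KYSE70 library 3. BMP4 rose 2.07-fold (limma adjusted p = 1e-05). Its log2 fold change of 1.05 became 0.97 without KYSE70 library 2, 0.96 without NRF2null-KYSE70 library 1, 0.97 under total scaling and 0.99 after arm-centring. BMP7 kept 95.6% of the parental level (limma adjusted p = 0.346). The BMP inhibitor CHRD had a log2 fold change of 0.87 (limma adjusted p = 0.000221), and CHRDL1, BMPER and KCP were too low to be tested.

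The genes most like the members were sought among 11988 genes with a mean of at least 100 normalized counts, by the root mean square distance between each gene's log2 values, centered over the 6 libraries, and the mean of the members. The nearest were MMP2 (0.0641), SPRY4 (0.0783), THBS1 (0.0796), AREG (0.0815) and MAFF (0.0831), and 21 genes lay within 0.2 log2 units. MMP2 encodes a matrix metalloproteinase, SPRY4 a feedback inhibitor of receptor signaling and MAFF a small MAF transcription factor. THBS1 and AREG were also on the list of further YAP/TAZ targets. The mean of the members was mostly the difference between the lines, on which they were chosen. The nearest genes thus had a similar log2 fold change (2.91 for MAFF to 3.16 for THBS1), and nothing is read from their names. The members lay farther from their own mean than these genes, from 0.257 for F3 to 1.91 for CTGF.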

How the data were processed

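RNA-seq was available for 3 KYSE70 and 3 NRF2null-KYSE70 libraries. The authors aligned reads with STAR (2.6.90c) to hg38, counted them per gene with featureCounts (1.5.1) and normalized them with DESeq2. The use of strand is not given in the sources used here. The deposited values are a signal in normalized counts, read counts divided by 1 size factor per library. Whole reads were recovered from them (100% of values within 0.01 of a whole read). Columns carry no replicate number, so libraries are numbered by their order in the table. Positions and exon lengths came from GENCODE v44 and promoters from RefSeq (GRCh38.p14). No column was left unused, and all 142 listed symbols were found.

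limma (3.58.1; lmFit, eBayes with trend) was fitted to log2(normalized count + 1) over the 15994 genes with a mean of at least 10, with Benjamini-Hochberg adjustment over all of them, two-sided. Fold changes on this scale understate those of low genes. Genes were called at an adjusted p under 0.05 with a log2 fold change of 1 or more in size. On the recovered reads, edgeR (4.0.16) called 2350 genes and DESeq2 (1.42.0) 2341, beside 2344 with limma. The fit was tested on simulated data. Where 5 members share exon bases with another annotated gene, the 4 of those genes in the table averaged at most 1.14 normalized counts. Genes named are the members, the other signature genes, the relatives and partners, the targeted gene, the 5 largest calls each way of the further targets and of the Hippo list, and the 5 nearest profiles. EMP2 and AMOT were the only calls on the lower side of those 2 lists. YAP1, WWTR1, LATS1, TEAD2, TEAD3 and TEAD4 were named after their values were seen. The members and lists were chosen with earlier results of these data known.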

Additional observations from a re-analysis of the deposited data

How the results depend on the processing

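The median log2 fold change of the 9 members was 2.47 and lay between 2.38 and 2.52 under the 17 alternatives, which were other pseudocounts, filters and scalings, limma without trend, edgeR, DESeq2, arm-centring and each library left out in turn. All 9 stayed higher in each. Counts of calls stayed within 1.5 times for the other signature genes (4 to 6), the further targets (13 to 16), the Hippo list (4 to 7) and the relatives and partners (8 to 10). The count over all genes, 2344, was 1511 with a filter at a mean of 50, where 13004 genes were tested, and 2226 to 2337 with a library left out. Total scaling shifted all genes by a median of -0.08. Directions turned for 4 genes that had not passed the threshold. ANKRD2 (0.04) was at -0.032 under total scaling, -0.041 after arm-centring and from -0.078 to 0.20 with a library left out. TYRO3 (0.05) was at -0.028 and -0.28 under the same 2 settings, with a limma adjusted p of 0.00113 after arm-centring. ANKRD23 (-0.18) was at 0.00997 with edgeR, 0.0069 with DESeq2 and from -0.72 to 0.27 with a library left out. BMP7 (-0.07) was at 0.18 after arm-centring (limma adjusted p = 0.0186). The cause was not tested. No paired analysis was possible because the columns carry no replicate numbers. Low read counts in KYSE70 limit CTGF (11 to 15 reads), BMP2 (2 to 34) and NT5E (0 to 1).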
